A study of Mus musculus with 6 samples.

Results

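Aminoacyl-tRNA synthetases join each amino acid to its transfer RNA and so fix the amino acid that a codon is read as. Mammalian cells carry a cytosolic set, which supplies the ribosomes of the cytosol, and a nuclear-encoded mitochondrial set, which is imported to serve the ribosomes of that organelle. Some cytosolic enzymes are held with scaffold proteins in the multi-synthetase complex, and many cytosolic genes are known targets of ATF4, the transcription factor of the amino acid response. The genes followed here were 36 synthetase genes chosen by symbol, 20 cytosolic and 16 mitochondrial, out of 32285 genes in the count matrices. The symbols of 35 of them stood in the files as given, and Mars1 was listed under its older symbol Mars. The choice used symbols and no threshold on a measured value.

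The cells were c-Kit-enriched BM progenitors of BALB/c mice, 10 weeks of age at harvest, in 3 groups. NTB mice bore no tumor and were not treated. The other groups carried orthotopic tumors of 4T1, a mammary carcinoma line of the same strain, and received either vehicle or BRQ (brequinar), an inhibitor of the pyrimidine synthesis enzyme DHODH, each by daily intraperitoneal injection. One mouse of each group was tagged with its own hashtag antibody and loaded in the same lane, and 3 such pools gave 3 mice per group, 9 in all. NTB and BRQ mice differ in tumor as well as in drug, no tumor-free mouse received BRQ, and all mice are of 1 tumor model.

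The promoters of the cytosolic members were searched for TGATGNAA, the composite element bound by ATF4 with a C/EBP partner, in either orientation (TTNCATCA on the printed strand) and with no other motif searched. RefSeq (GRCm38.p6) gave promoter windows of 250 bases before to 50 after the start for 13 cytosolic and 14 mitochondrial members. The element lay in 5 of the 13 cytosolic genes (38.5%) and in 0 of the 14 mitochondrial genes, whereas 1219 of all 27025 genes with a promoter held it (4.51%). The 5 windows are printed because 4 of these genes were among the members that changed in GMPs. Eprs, Farsb and Mars1, which changed as well, had a window without the element. Cars, Hars, Lars, Rars and Wars also changed and had no window to search. Each runs from 90 bases before the start to 30 after it, with the element in capitals, and covers chr8:111033752-111033871 for Aars, chr15:11399629-11399748 for Tars, chr6:55037911-55038030 for Gars, chr4:129189813-129189932 for Yars and chr13:49682040-49682159 for Iars. Tars is on the minus strand and the others are on the plus strand.
Aars: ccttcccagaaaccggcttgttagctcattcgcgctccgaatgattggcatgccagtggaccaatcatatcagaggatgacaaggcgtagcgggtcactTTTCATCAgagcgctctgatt
Tars: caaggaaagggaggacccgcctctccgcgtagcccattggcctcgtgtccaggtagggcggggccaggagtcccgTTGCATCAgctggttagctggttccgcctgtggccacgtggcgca
Gars: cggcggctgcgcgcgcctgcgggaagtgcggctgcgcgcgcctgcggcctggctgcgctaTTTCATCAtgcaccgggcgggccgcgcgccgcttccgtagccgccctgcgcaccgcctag
Yars: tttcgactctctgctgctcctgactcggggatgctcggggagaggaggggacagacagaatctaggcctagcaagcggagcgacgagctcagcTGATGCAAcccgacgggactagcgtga
Iars: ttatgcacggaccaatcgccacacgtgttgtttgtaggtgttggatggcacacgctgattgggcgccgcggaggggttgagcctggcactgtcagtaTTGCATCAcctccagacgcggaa
Counted from 0 at the start, the element began 15 bases before the start in Tars and 30 bases before it in Gars. In Yars, Iars and Aars it began 3, 7 and 9 bases after the start, and Aars held a further match 112 bases before it, outside the printed window. These matches describe letters in the reference and were not tested as binding sites.

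Granulocyte-monocyte progenitors (GMPs) were the cells with an Ms4a3 level above 3, and counts of unique molecular identifiers (UMIs) were summed per mouse. The level was ln(1 + Ms4a3 UMIs per 10000 UMIs), whereas the study set its limit of 3 on scaled expression, so the gates are not the same. There were 3916 GMPs, and pools 1 to 3 gave 88, 135 and 177 NTB-GMPs, 1017, 95 and 289 Veh-GMPs and 806, 656 and 653 BRQ-GMPs. The sums held 998154 to 16074010 UMIs. Those of the NTB mice, at 998154 to 2068775, and of the vehicle mouse of pool 2, at 1661618, were the smallest. A low count in these mice carried more error than one in the others. All 8 GMP markers were detected, at a summed level of 42211 to 51039 CPM in NTB-GMPs, 46534 to 50671 CPM in Veh-GMPs and 33291 to 44385 CPM in BRQ-GMPs, the last below all vehicle mice. CPM are UMI counts relative to the library total after correction by TMM (a composition factor per library). The 14 neutrophil markers were also all detected in these cells, at 48223 to 54164 CPM in NTB-GMPs, 35081 to 42220 CPM in Veh-GMPs and 25155 to 37133 CPM in BRQ-GMPs. The 9 macrophage markers were at 377 to 409 CPM in NTB-GMPs at 249 to 267 CPM in Veh-GMPs and at 151 to 285 CPM in BRQ-GMPs. Marker lists of 5 other cell types were higher in BRQ-GMPs than in Veh-GMPs without overlap on this scale. They were at 95.3 to 133 against 57.0 to 76.5 CPM for monocyte/MDP, at 75.6 to 86.6 against 52.6 to 57.9 CPM for HSC/MPP and at 176 to 194 against 86.8 to 117 CPM for basophil/mast/eosinophil markers, the last at 131 to 181 CPM in NTB-GMPs. Lymphoid progenitor markers were at 26.6 to 35.2 CPM in NTB-GMPs, 17.8 to 21.4 CPM in Veh-GMPs and 23.9 to 27.3 CPM in BRQ-GMPs, and stromal/endothelial markers at 2.13 to 5.55, 3.67 to 6.21 and 6.71 to 10.5 CPM. The 15 cell cycle genes summed to 2011 to 2130 CPM in NTB-GMPs, 2174 to 2301 CPM in Veh-GMPs and 2027 to 2147 CPM in BRQ-GMPs, with vehicle above both others. The 13 mitochondrially encoded genes summed to 37668 to 41067, 34397 to 37148 and 29502 to 35393 CPM, with NTB above both others. A cluster led by Fkbp11, Serpine2 and Pdcd4 held 1.14% to 6.21% of NTB-GMPs, 12.6% to 14.5% of Veh-GMPs and 22.2% to 50.7% of BRQ-GMPs. The part of these differences in the results below was not tested except where a value restricted to 1 cluster is given. Fewer molecules per cell and fewer cells of a given state within the gate cannot be told apart in such sums.

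The cytosolic synthetase genes were higher in GMPs of tumor-bearing vehicle mice than in NTB-GMPs. Together they made up 1006, 1039 and 1020 CPM in the NTB mice of pools 1 to 3, 1258, 1349 and 1262 CPM in the vehicle mice and 1118, 1128 and 1185 CPM in the BRQ mice. The 3 groups did not overlap, and the means were 1022 ± 16.4, 1290 ± 51.4 and 1143 ± 36.03 CPM (SD, n = 3 each). By library totals alone, without TMM, NTB mice were also below all others, but BRQ mice at 1170, 1192 and 1365 CPM overlapped vehicle mice at 1165, 1295 and 1225 CPM. The mitochondrial members summed to 207 to 250.3 CPM in NTB-GMPs, 216 to 229 CPM in Veh-GMPs and 216 to 241 CPM in BRQ-GMPs, and these ranges overlapped. By library totals, BRQ mice at 226, 248 and 278 CPM stood above vehicle mice at 203, 220.3 and 209 CPM.

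**Figure D1:**
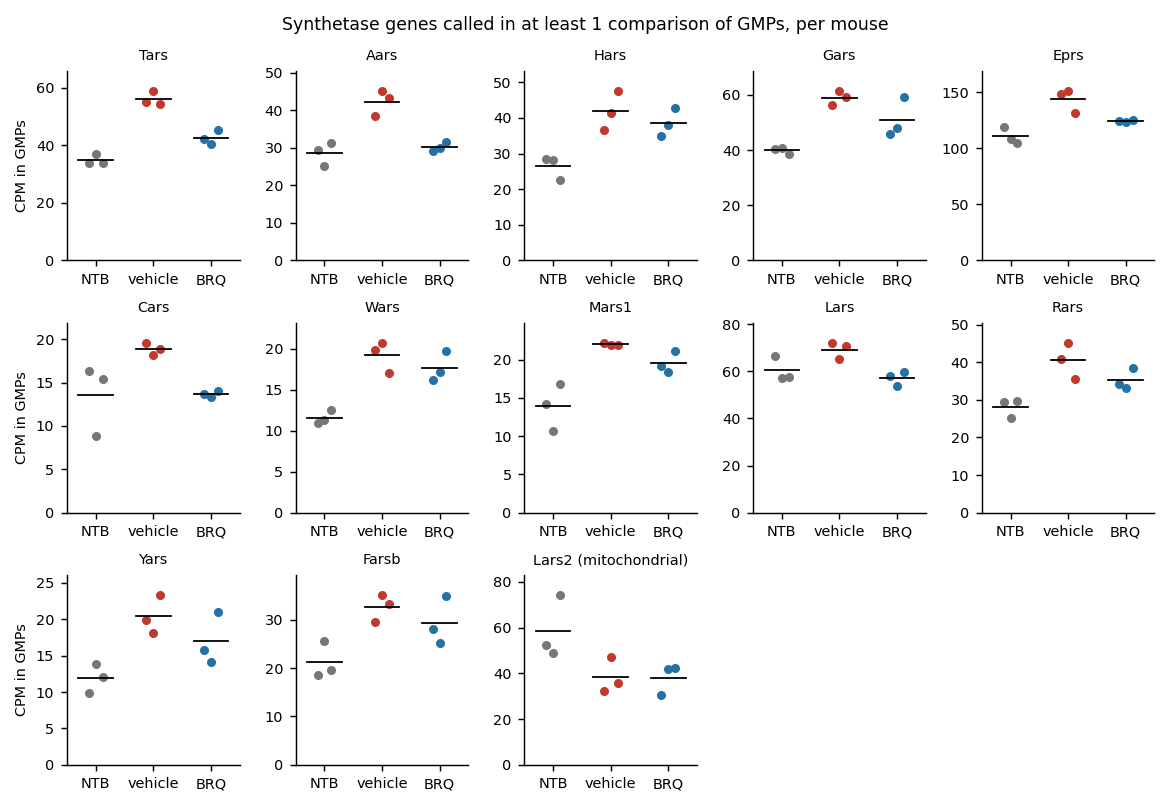
CPM in GMPs (vertical axes, each from 0) of the 13 synthetase genes that passed the test in at least 1 comparison, with 1 point per mouse in pool order and a line at the mean of each group. Vehicle mice lie above NTB mice in 11 of the 12 cytosolic panels without overlap, and Lars2, the mitochondrial gene, has its highest value of 74.1 CPM in an NTB mouse.

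Between Veh-GMPs and NTB-GMPs, 10 of the 20 cytosolic members were significantly higher and none was lower (adjusted p under 0.05 across all genes, edgeR's quasi-likelihood test). Of all 10331 genes tested, 6.63% were called higher and 4.68% lower. The fold change was above 0 for 19 of the 20, with a median of 0.45 on the log2 scale against -0.01 over all genes tested. Vars, the valyl enzyme, was the exception at -0.00 ± 0.11 (SE). Scaling by library totals moved the calls over all genes from 685 higher and 484 lower to 490 and 514. It left 5 cytosolic calls, with a cytosolic median of 0.42. Within the pools, the median difference was 0.37, 0.45 and 0.34 on the log2(CPM + 1) scale, and 19 of the 20 genes were higher in the vehicle mouse of each pool. Leaving out 1 mouse changed the count to 5 without the NTB mouse of pool 2, to 3 without that of pool 3 and to 4 without the vehicle mouse of pool 1, while the median stayed between 0.42 and 0.47.

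Tars, the threonyl enzyme whose promoter is printed above, showed the smallest adjusted p. It was at 33.8, 37.0 and 33.7 CPM in the NTB mice, 55.2, 58.9 and 54.6 CPM in the vehicle mice and 42.2, 40.5 and 45.3 CPM in the BRQ mice. Every vehicle mouse was above every BRQ mouse, and every BRQ mouse above every NTB mouse, although by library totals vehicle and BRQ mice overlapped. The log2 fold change was 0.67 ± 0.12 (adjusted p = 0.000957) for vehicle over NTB and -0.38 ± 0.09 (adjusted p = 0.00562) for BRQ over vehicle by edgeR's test. Tars lies at chr15:11382301-11399665.

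Aars, the alanyl enzyme, was at 29.4, 25.1 and 31.3 CPM in the NTB mice, 38.5, 45.1 and 43.3 CPM in the vehicle mice and 29.1, 30 and 31.5 CPM in the BRQ mice. The vehicle mice stood above the other 6, and NTB and BRQ mice overlapped, whereas by library totals vehicle and BRQ mice overlapped as well. Its log2 fold change was 0.52 ± 0.14 (adjusted p = 0.0162) for vehicle over NTB and -0.45 ± 0.10 (adjusted p = 0.0039) for BRQ over vehicle in edgeR. The comparisons share the vehicle mice, so high values in these mice enter each with opposite sign. Aars lies at chr8:111033144-111057664 and shares its strand with the overlapping gene Exosc6.

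Gars, the glycyl enzyme, which also supplies the mitochondrial form, was at 40.3, 40.8 and 38.5 CPM in the NTB mice, 56.3, 61.4 and 59.2 CPM in the vehicle mice and 46.0, 47.9 and 59.2 CPM in the BRQ mice. Vehicle mice were above all NTB mice, and the BRQ mouse of pool 3 reached the vehicle range. Vehicle over NTB was 0.55 ± 0.13 on the log2 scale (adjusted p = 0.00903 in edgeR), and BRQ over vehicle did not pass at -0.19 ± 0.10. The calls of Aars, Gars and Hars in vehicle over NTB were each lost under 5 of 22 alternatives, including on dropping the NTB mouse from pool 2 for Aars and from pool 3 for Gars and Hars.

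Hars, the histidyl enzyme, stood at 28.3, 28.2 and 22.6 CPM in the NTB mice, 36.7, 41.4 and 47.6 CPM in the vehicle mice and 34.96, 38.1 and 42.8 CPM in the BRQ mice. All 6 tumor-bearing mice were above the NTB mice, and vehicle and BRQ mice overlapped. Hars was the only cytosolic member significantly higher in both tumor-bearing groups, by 0.67 ± 0.16 (adjusted p = 0.00853) in vehicle and by 0.58 ± 0.16 (adjusted p = 0.0282) in BRQ mice in edgeR. Its annotated span overlaps that of Hars2 on the opposite strand.

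Yars and Wars charge tyrosine and tryptophan, and Wars is also known as an interferon-induced gene. Yars was at 9.81, 13.8 and 12.04 CPM in the NTB mice, 19.9, 18.2 and 23.3 CPM in the vehicle mice and 15.8, 14.1 and 20.9 CPM in the BRQ mice. Wars was at 10.9, 11.3 and 12.5 CPM in the NTB mice, 19.8, 20.7 and 17.1 CPM in the vehicle mice and 16.2, 17.1 and 19.7 CPM in the BRQ mice. For each gene, vehicle and NTB mice did not overlap and vehicle and BRQ mice did. Vehicle over NTB was 0.77 ± 0.23 for Yars (adjusted p = 0.0286) and 0.70 ± 0.20 for Wars (adjusted p = 0.0233) in edgeR. These are low counts, with 9 UMIs of Yars and 10 of Wars in the NTB mouse of pool 1, and either call was lost under 11 of 22 alternative settings. None of the 7 interferon response genes tested was called in this comparison, with 2 at an unadjusted p under 0.05 and a median log2 fold change of -0.28. With 6.63% of all genes called higher and 4.68% lower, none among 7 is near the share of all genes.

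Farsb encodes the beta subunit of the phenylalanyl enzyme and Farsa the alpha subunit. Farsb was at 18.5, 25.7 and 19.7 CPM in the NTB mice, 29.6, 35.1 and 33.4 CPM in the vehicle mice and 28.1, 25.1 and 35.04 CPM in the BRQ mice. Vehicle exceeded NTB by 0.56 ± 0.18 (adjusted p = 0.0483 in edgeR) without overlap, a call lost under 15 of 22 alternatives. Farsa had 0.30 ± 0.12 (adjusted p = 0.113 in edgeR), and its NTB and vehicle mice overlapped. Nars, the asparaginyl enzyme, and Sars, the seryl enzyme, did not pass either, at 0.27 ± 0.10 and 0.13 ± 0.10.

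Of the 8 members of the multi-synthetase complex, 3 were higher in Veh-GMPs, where 6.63% of all genes were called higher. All 8 had a fold change above 0, with a median of 0.35 against 0.45 over all cytosolic members. Eprs, whose single protein charges both glutamate and proline, was at 119, 108 and 105 CPM in the NTB mice, 148, 151 and 132 CPM in the vehicle mice and 124, 123.2 and 125 CPM in the BRQ mice. The 3 groups did not overlap, except for vehicle and BRQ mice by library totals, with vehicle over NTB at 0.39 ± 0.09 (adjusted p = 0.00938 in edgeR). This call was lost under 5 of 23 alternatives, among them dropping the pool 3 NTB mouse or the pool 1 vehicle mouse, and it reversed to -0.39 where the limit was read as UMIs. Rars, the arginyl enzyme, was at 29.4, 25.1 and 29.8 CPM in the NTB mice, 41.0, 45.1 and 35.5 CPM in the vehicle mice and 34.1, 33.2 and 38.4 CPM in the BRQ mice. Mars1, the methionyl enzyme, was at 14.2, 10.7 and 16.8 CPM in the NTB mice, 22.2, 21.9 and 21.9 CPM in the vehicle mice and 19.2, 18.4 and 21.2 CPM in the BRQ mice. Vehicle over NTB was 0.50 ± 0.15 for Rars (adjusted p = 0.0268) and 0.64 ± 0.18 for Mars1 (adjusted p = 0.0245) in edgeR, again without overlap. The call of Rars was lost under 10 of 22 alternatives, including on dropping the NTB mouse from pool 2 or 3, or the vehicle mouse from pool 1 or 2. That of Mars1 was lost under 9 of 22, including on dropping the pool 2 NTB mouse or the pool 1 vehicle mouse. Mars1 overlaps Ddit3 on the opposite strand. The remaining complex members Dars, Iars, Kars, Lars and Qars had fold changes of 0.05 to 0.40 and did not pass.

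Of the 3 scaffold genes of the complex, 2 were higher in Veh-GMPs, where 6.63% of all genes were called higher. Eef1e1, which encodes the scaffold AIMP3, was at 28.3, 39.5 and 39.5 CPM in the NTB mice, 69.5, 65.8 and 64.3 CPM in the vehicle mice and 55.5, 48.3 and 62.5 CPM in the BRQ mice. The groups did not overlap, except for vehicle and BRQ mice by library totals, and the log2 fold change was 0.86 ± 0.14 for vehicle over NTB (adjusted p = 0.000313) and 0.59 ± 0.14 for BRQ over NTB (adjusted p = 0.0108) in edgeR. Aimp1 was higher in Veh-GMPs by 0.32 ± 0.09 (adjusted p = 0.0178 in edgeR). Aimp2 had 0.38 ± 0.20 in that comparison and was lower in BRQ-GMPs than in Veh-GMPs by -0.43 ± 0.14 (adjusted p = 0.0466 in edgeR), with vehicle and BRQ mice overlapping.

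No mitochondrial member was called higher in Veh-GMPs. All 16 were tested, and between Veh-GMPs and NTB-GMPs none passed as higher and 1 was lower, with a median log2 fold change of 0.08 and 11 of the 16 above 0. These counts are near the shares of all genes, of which 6.63% were called higher and 4.68% lower. The test was less sharp for them, with a median SE of 0.24 against 0.14 for the cytosolic members. Aars2, Pars2 and Wars2 had 0 UMIs among the 998154 of the NTB mouse of pool 1, which allows up to 3.27 CPM by counting error. Yars2, the mitochondrial tyrosyl enzyme, had the highest value at 0.48 ± 0.24 (adjusted p = 0.223 in edgeR), and the other 14 ran from -0.32 in Fars2 to 0.46 in Pars2.

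The member that fell was Lars2, the mitochondrial leucyl enzyme, at chr9:123366927-123462666. It was at 52.3, 48.9 and 74.1 CPM in the NTB mice, 32.5, 47.0 and 35.7 CPM in the vehicle mice and 30.4, 41.8 and 42.3 CPM in the BRQ mice. The NTB mice were above all others, although the NTB and vehicle mice of pool 2 were close and NTB and BRQ mice overlapped by library totals. The log2 fold change was -0.74 ± 0.17 for vehicle over NTB (adjusted p = 0.00681) and -0.66 ± 0.16 for BRQ over NTB (adjusted p = 0.0159) in edgeR. The first call was lost when either the pool 3 NTB mouse or the pool 1 vehicle mouse was left out, and the second when either the pool 3 NTB mouse or the pool 1 BRQ mouse was left out. Gm42418, a gene model at a ribosomal RNA repeat that was looked up after the values of Lars2 were seen, moved alongside, at 3329, 2422 and 4486 CPM in the NTB mice, 1704, 1779 and 2288 CPM in the vehicle mice and 1840, 2051 and 2385 CPM in the BRQ mice. Its fold change was -0.83 ± 0.16 for vehicle over NTB (adjusted p = 0.0013 in edgeR), and its part in the change of Lars2 was not tested.

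**Figure D2:**
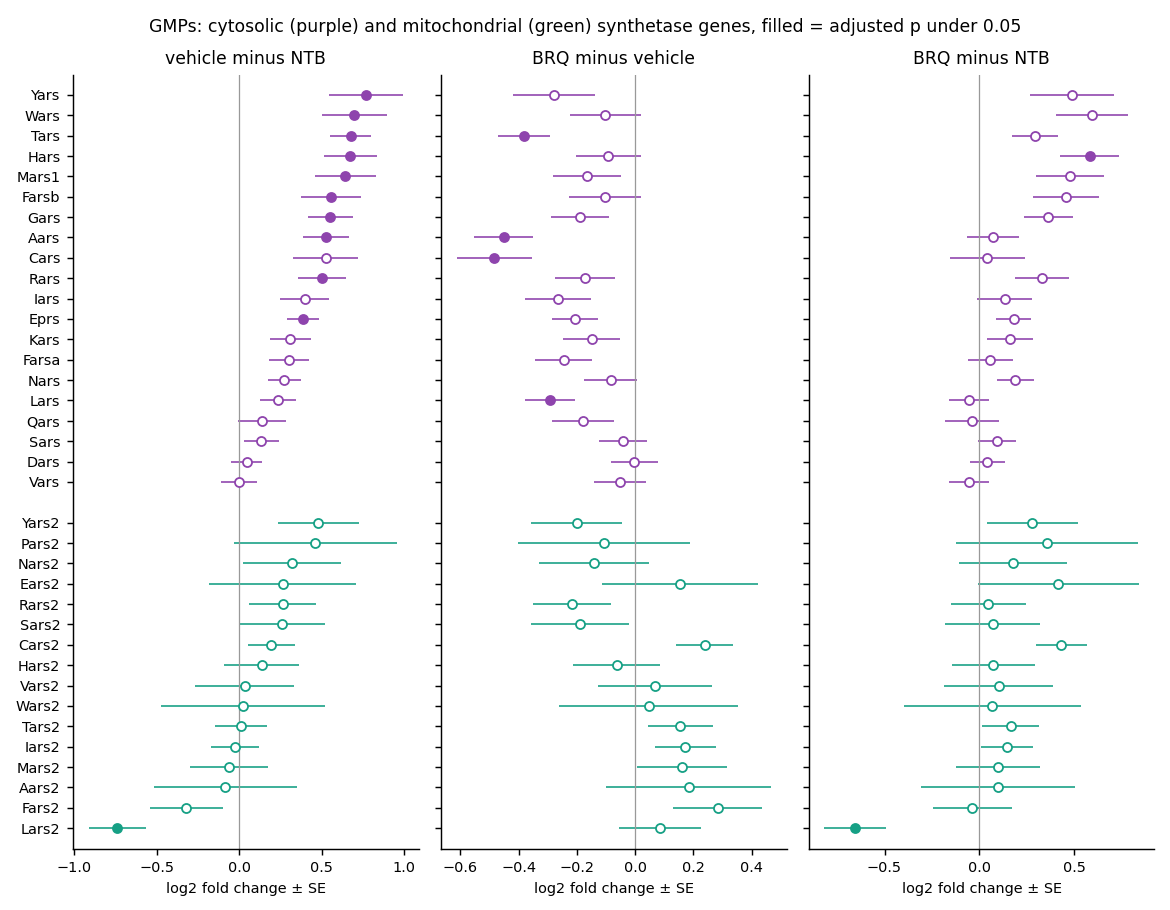
Log2 fold change in GMPs (horizontal axes, ± SE from edgeR) of the 20 cytosolic (purple) and 16 mitochondrial (green) members in the 3 comparisons, ordered by vehicle minus NTB, with filled points at an adjusted p under 0.05. In the first panel 10 purple points are filled to the right of 0, in the second 4 are filled to the left, a side that depends on the scaling of the libraries, and Lars2 is filled to the left in both panels against NTB.

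Between BRQ-GMPs and Veh-GMPs, 4 cytosolic members were lower and none was higher, where 6.08% of all genes were called higher and 7.37% lower. The cytosolic median was -0.18, with 20 of 20 below 0, but with scaling by library totals alone it was 0.02, with 12 of 20 above 0 and none called. That scaling moved the median of all genes from 0.00 to 0.20, so the cytosolic median differed from the median of all genes by -0.18 in either case. It also moved the calls over all genes from 628 higher and 761 lower (45.2% higher) to 1984 and 259 (88.5% higher). Within the pools the cytosolic median was -0.23, -0.32 and -0.11 on the log2(CPM + 1) scale, with 20, 19 and 15 of the 20 lower in the BRQ mouse. With the pool as a block 7 cytosolic members were called. Without the BRQ mouse of pool 3 there were also 7, and without the vehicle mouse of pool 1 there were 2.

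Aars and Tars, described above, had the smallest adjusted p here, and both kept their calls when any 1 mouse was left out. Cars, the cysteinyl enzyme, was at 16.4, 8.78 and 15.4 CPM in the NTB mice, 19.6, 18.2 and 18.8 CPM in the vehicle mice and 13.7, 13.3 and 14.02 CPM in the BRQ mice. Lars, the leucyl enzyme, also known as a leucine sensor for mTORC1, was at 66.5, 57.1 and 57.8 CPM in the NTB mice, 72.0, 65.2 and 70.7 CPM in the vehicle mice and 58.2, 53.7 and 59.9 CPM in the BRQ mice. In each gene every BRQ mouse was below every vehicle mouse, which by library totals held for Cars and not for Lars. The call of Cars was lost under 8 of 22 alternatives, among them leaving out the vehicle mouse of pool 1. That of Lars was lost under 9 of 23 and reversed under 1, and it was lost on dropping the BRQ mouse from pool 1 or 2 or the vehicle mouse from pool 1 or 3. BRQ over vehicle was -0.48 ± 0.13 for Cars (adjusted p = 0.0146) and -0.29 ± 0.09 for Lars (adjusted p = 0.0257) in edgeR, whereas vehicle over NTB did not pass for either, at 0.52 ± 0.20 and 0.24 ± 0.11. No mitochondrial member was called in edgeR or DESeq2, with 1 at an unadjusted p under 0.05 and a median of 0.08, although with library totals 3 were called higher and the median was 0.27.

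Between BRQ-GMPs and NTB-GMPs, Hars was the 1 cytosolic member called higher and Lars2 the 1 mitochondrial member called lower, where 2.56% of all genes were called higher and 3.46% lower. The cytosolic median was 0.17 against -0.00 over all genes, with 17 of 20 above 0. Scaling by library totals raised the median of all genes to 0.16 and the cytosolic median to 0.34, called 9 cytosolic members, and moved the calls over all genes from 42.5% to 83.5% higher. With the pool as a block there were 4 cytosolic and 2 mitochondrial calls. Leaving out any NTB mouse or the BRQ mouse of pool 3 ended the call of Hars. Within the pools the median was 0.16, 0.17 and 0.28. Cars2, the mitochondrial cysteinyl enzyme, had 0.43 ± 0.13 (adjusted p = 0.0592 in edgeR), with all BRQ mice above all NTB mice. This comparison shares its mice with the other two, so its values are no separate measurement.

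Fewer cytosolic members were called in vehicle over NTB in sums of fewer cells or UMIs. The settings that equalised the mix of the cells also cut their number, so these cannot be told apart. Restricted to the GMPs of the largest shared cluster, 1 cytosolic member was called and the median was 0.36. With equal cells per cluster or per UMI bin in every mouse, which left 71 and 64 cells each, 0 were called in edgeR and the medians were 0.36 and 0.36. With the sums thinned to the total of the smallest, 2 were called at a median of 0.35. GMPs of the vehicle mice held a median of 14737 to 17966 UMIs per cell, against 10829 to 11581 in the NTB mice. Where the study's limit of 7500 was read as UMIs, as few as 8 GMPs were left in a vehicle mouse, 0 were called and the median was -0.14.

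Some genes of the amino acid response were also higher in vehicle over NTB, where 6.63% of all genes were called higher and 4.68% lower. Of the 27 genes on that list 17 were expressed enough to test, and 9 were higher in Veh-GMPs and none lower, with a median log2 fold change of 0.48. Atf4 itself was at 98.1, 100.4 and 102 CPM in the NTB mice, 137, 147 and 151 CPM in the vehicle mice and 93.3, 91.4 and 113 CPM in the BRQ mice. The vehicle mice stood above the others, BRQ mice excepted by library totals, with 0.53 ± 0.10 for vehicle over NTB (adjusted p = 0.00195) and -0.54 ± 0.09 for BRQ over vehicle (adjusted p = 0.000243) in edgeR. Psat1 and Psph, enzymes of serine synthesis, were higher in Veh-GMPs by 0.71 ± 0.15 (adjusted p = 0.00337) and 0.54 ± 0.13 (adjusted p = 0.00881), and Mthfd2, of mitochondrial one-carbon metabolism, by 0.76 ± 0.18 (adjusted p = 0.00844). In BRQ over vehicle 7 of the 17 were lower and none higher, where 6.08% of all genes were called higher and 7.37% lower. Their median was -0.23 on a scale that library totals would shift by 0.20 over all genes. Psph fell by 0.67 ± 0.10 (adjusted p = 8.22e-05 in edgeR). Asns, which makes asparagine, was lower by -0.50 ± 0.12 (adjusted p = 0.00844), and Atf5 by -0.88 ± 0.16 (adjusted p = 0.00048). Of the 13 synthetase members on the list of known ATF4 targets, 7 were higher in Veh-GMPs, where 6.63% of all genes were called higher. Farsb, Hars and Rars, which are not on that list, were higher too, so the calls were not confined to it. On the list 4 were lower in BRQ-GMPs against Veh-GMPs, where 7.37% of all genes were called lower. These were all 4 cytosolic calls of that comparison.

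Amino acid transporters and elongation factors act before and after charging. Over all genes, 6.63% were called higher in vehicle over NTB and 7.37% lower in BRQ over vehicle. Slc7a5, which imports large neutral amino acids, was at 11.99, 8.16 and 8.18 CPM in the NTB mice, 19.2, 17.5 and 15.9 CPM in the vehicle mice and 12.2, 11.8 and 16.7 CPM in the BRQ mice. It and the glutamine carrier Slc1a5 were the 2 of 7 tested transporters that were higher in Veh-GMPs, by 1.00 ± 0.24 (adjusted p = 0.0098) and 0.52 ± 0.15 (adjusted p = 0.0232) in edgeR. Slc1a5 and Slc3a2, the heavy chain that pairs with Slc7a5, were lower in BRQ-GMPs than in Veh-GMPs by -0.54 ± 0.11 (adjusted p = 0.0012) and -0.55 ± 0.13 (adjusted p = 0.0068) in edgeR. Slc3a2 was at 48.9, 30.1 and 32.0 CPM in the vehicle mice against 28.04, 25.6 and 27.9 CPM in the BRQ mice, so the vehicle mouse of pool 1 stood far above the rest, and by library totals the groups overlapped. Among the 6 elongation genes, Eef1g, Eif5a and Eef1d were higher in Veh-GMPs, with Eef1g at 0.55 ± 0.08 (adjusted p = 0.000135). Eef1d, Eef1g and Eef1b2 were lower in BRQ-GMPs than in Veh-GMPs, with Eef1d at -0.58 ± 0.10 (adjusted p = 0.000379). The elongation medians were 0.26 and -0.34 in these comparisons, the latter on the scale that library totals would shift. Among 15 cell cycle genes, Rrm2 alone was higher in Veh-GMPs and Pcna alone lower in BRQ-GMPs against Veh-GMPs, and the medians were 0.08 and -0.07. These counts of 1 in 15 are close to the share of all genes called.

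**Figure D3:**
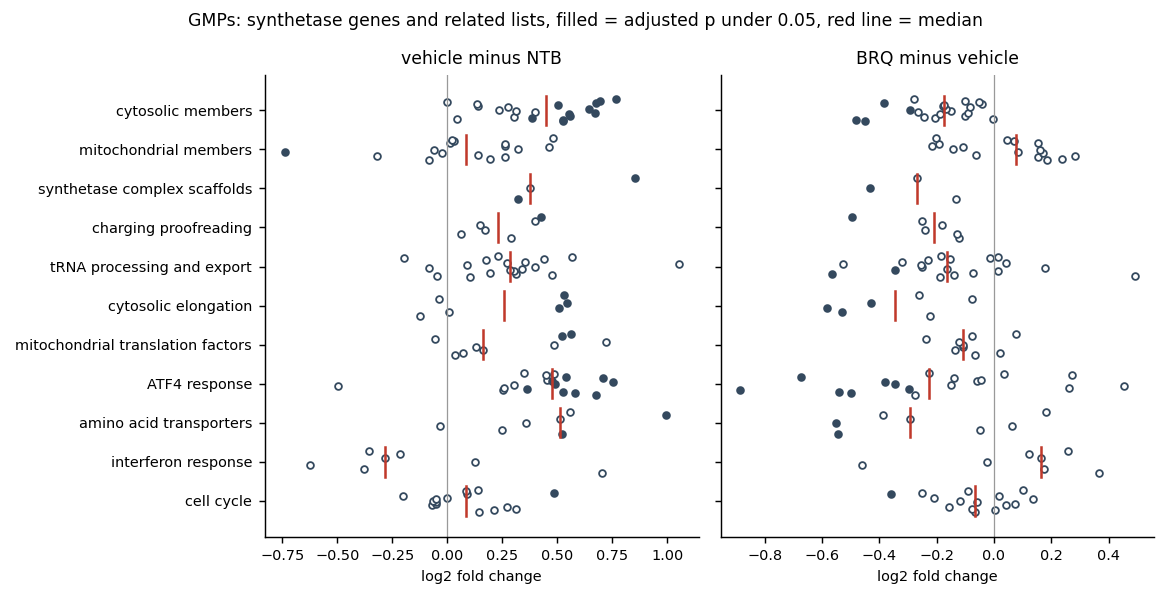
Log2 fold change in GMPs (horizontal axes) of the genes of 11 lists, 1 point per gene tested, filled at an adjusted p under 0.05 in edgeR, with a red line at the median of each list. In the left panel the medians of the cytosolic members and the ATF4 response are 0.45 and 0.48 and that of the mitochondrial members 0.08, and in the right panel the 4 filled cytosolic points lie to the left of 0, where scaling by library totals leaves none called.

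In other cells of the same marrows, the cytosolic members were tested where every mouse gave at least 20 cells. Cells of the GMP-like clusters that failed the Ms4a3 limit had 14 cytosolic members higher in vehicle over NTB and none lower, with Yars2 higher and Lars2 lower among the mitochondrial ones, where 21.2% of all genes were called. In BRQ over vehicle Aars and Tars were lower (5.52% of genes called), and in BRQ over NTB 8 cytosolic members, Tars2 and Yars2 were higher and Lars2 lower (18.5% called). Tars in these cells was at 34.2, 44.9 and 39.9 CPM in the NTB mice, 61.5, 61.2 and 67.7 CPM in the vehicle mice and 44.4, 44.1 and 51.4 CPM in the BRQ mice, so the vehicle mice again stood above the rest. Lars2 was at 60.9, 86.9 and 80.5 CPM in the NTB mice, 58.5, 52.5 and 69.4 CPM in the vehicle mice and 48.2, 54.9 and 47.0 CPM in the BRQ mice. The fall of Lars2 was -0.65 ± 0.11 in BRQ over NTB (adjusted p = 0.000242) and -0.35 ± 0.12 in vehicle over NTB (adjusted p = 0.0376), the latter with overlap between the groups. The cluster led by Fkbp11, Serpine2 and Pdcd4 held 14.6% to 26.0% of these cells in NTB mice, 30.3% to 37.3% in vehicle mice and 38.4% to 67.7% in BRQ mice. Their median depth was 9075 to 9922 UMIs per cell in NTB mice, 12410 to 15130 in vehicle mice and 10840 to 14750 in BRQ mice, and the part of these differences in the result was not tested. The 11 calls of BRQ over NTB became 2 without the NTB mouse of pool 2, 5 without that of pool 3 and 4 without the BRQ mouse of pool 3, and the 16 of vehicle over NTB became 10 without the NTB mouse of pool 2 or of pool 3. The 2 calls of BRQ over vehicle became 0 without the vehicle mouse of pool 3, 1 on dropping the pool 1 vehicle mouse or the pool 2 BRQ mouse, and 4 with the pool as a block.

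In monocyte/MDP-like cells none of the 36 members passed in vehicle over NTB in edgeR, with 11 at an unadjusted p under 0.05 and 3.11% of all genes called. DESeq2 called none either, but gave 21 of the members no adjusted p. These cells were of 1 cluster, with a median of 13730 to 17560 UMIs per cell in NTB mice, 21260 to 23960 in vehicle mice and 15310 to 18770 in BRQ mice, and the part of depth in these values was not tested. The cytosolic median was 0.27, with 19 of 20 above 0, and 2 members were called without the NTB mouse of pool 1. Tars, Lars and Nars were lower in BRQ over vehicle (5.13% of genes called), by -0.44 ± 0.11, -0.41 ± 0.10 and -0.40 ± 0.10 with adjusted p = 0.018, 0.0146 and 0.0174 in edgeR. Nars was at 153, 116 and 108 CPM in the NTB mice, 148, 149.6 and 163 CPM in the vehicle mice and 121, 109 and 119 CPM in the BRQ mice, and the BRQ mice were below every vehicle mouse. All 3 calls were lost without the BRQ mouse of pool 2, and 1 member was called without the vehicle mouse of pool 1 or of pool 3. In BRQ over NTB only Lars2 was lower, at -0.53 ± 0.14 (adjusted p = 0.0404 in edgeR, 2.66% of genes called), and DESeq2 did not call it. Of the 9 fits that left out 1 mouse, 1 member was called on dropping the pool 2 BRQ mouse or the vehicle mouse from pool 1 or 3, and none in the rest.

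In neutrophil-like cells none of the 28 members tested was called in any comparison in edgeR, where 10.4%, 0% and 3% of genes were called in vehicle over NTB, BRQ over vehicle and BRQ over NTB. At an unadjusted p under 0.05 there were 3, 0 and 2 members, all cytosolic. DESeq2 called none either, with 1 member left without an adjusted p in BRQ over NTB. The cytosolic median was -0.06 in vehicle over NTB, with 8 above and 12 below 0. Without the vehicle mouse of pool 1, 4 members were called in vehicle over NTB. The cells of this class differed between the groups. A cluster led by Wfdc17, Il1b and Steap4 held 4.90% to 7.97% of them in NTB mice, 57.0% to 87.2% in vehicle mice and 40.1% to 75.3% in BRQ mice. The median depth was 6208 to 7690 UMIs per cell in NTB mice, 1620 to 2662 in vehicle mice and 2742 to 4769 in BRQ mice, and all 15 cell cycle genes had a vehicle over NTB fold change below 0, at a median of -0.61. The part of these differences in the result was not tested. Only 8 of the 16 mitochondrial members had enough counts to be tested there.

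The sum over all 15966 singlets mixes these classes. There 16 cytosolic members, Rars2 and Yars2 were higher in vehicle over NTB (31.2% of genes called), Tars was lower in BRQ over vehicle (4.07% called), and in BRQ over NTB 9 cytosolic and 3 mitochondrial members were higher and Lars2 was lower (22.7% called). The 13 calls of BRQ over NTB became 5 to 7 when the NTB mouse was dropped from pool 2 or 3, or the BRQ mouse from pool 1 or 3. The call of Tars was lost on dropping any vehicle mouse, or the BRQ mouse from pool 1 or 2, whereas 2 members were called on dropping the NTB mouse from pool 2 or 3 and 4 with the pool as a block. Tests of the difference itself used limma on the per-mouse difference of log2 CPM between GMPs and the other class. They found no member whose change differed between GMPs and the GMP-like, monocyte/MDP-like or neutrophil-like cells in any comparison. Against neutrophil-like cells in vehicle over NTB, 174 of 8848 genes passed that test, 10 of 28 members had an unadjusted p under 0.05, and the lowest adjusted p of a member was 0.0814 for Mars1, whose change was 1.33 ± 0.37 larger in GMPs. Without the vehicle mouse of pool 1, 8 members passed this test. In the other 8 tests 0 genes passed in limma, with 0 to 6 members and 273 to 1100 genes at an unadjusted p under 0.05.

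**Figure D4:**
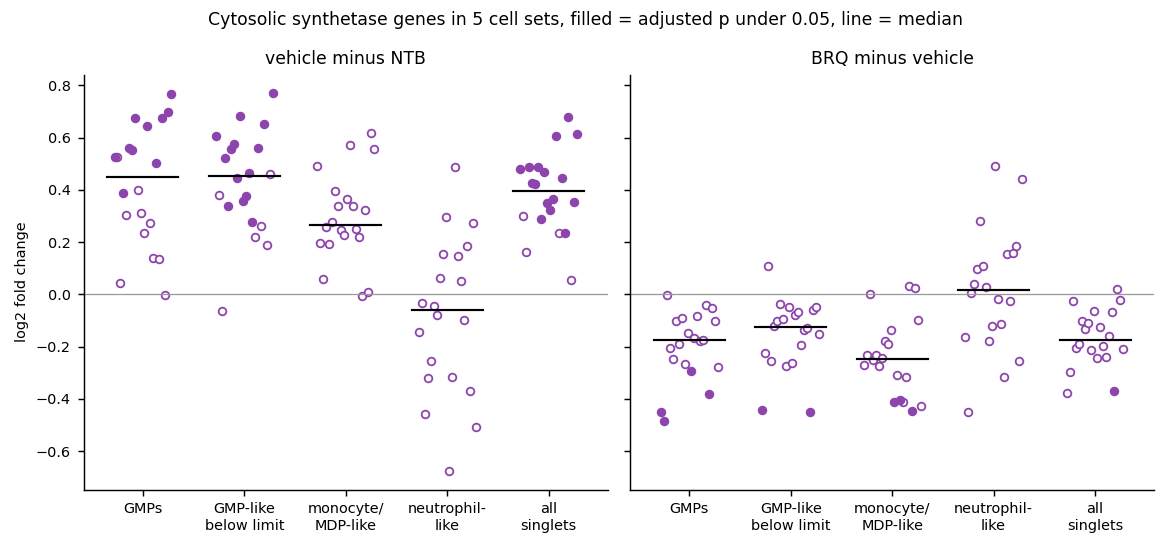
Log2 fold change (vertical axis) of the 20 cytosolic members in 5 sets of cells, filled at an adjusted p under 0.05 in edgeR, with a line at the median. Medians for vehicle minus NTB are 0.45 in GMPs and in GMP-like cells below the limit and 0.27 in monocyte/MDP-like cells, against -0.06 in neutrophil-like cells, where no point is filled.

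Levels were compared across 7 sets of cells, each scaled within itself, and not in the clusters named for macrophages, dendritic cells, B cells and stromal/endothelial cells or in the 3 unnamed clusters. Among these 7 the members were mostly at their lowest in neutrophil-like cells and mostly at their highest in erythroid/MEP-like cells. The 20 cytosolic members summed to 1815 ± 70.0 CPM in erythroid/MEP-like cells (SD over 6 mice with at least 20 such cells) and to 457 ± 57.4 CPM in neutrophil-like cells (9 mice), and the ranges over mice did not meet those of the other classes compared. Between them lay HSC/MPP-like cells at 1323 ± 115 CPM (8 mice), GMP-like cells below the limit at 1293 ± 158, monocyte/MDP-like cells at 1273 ± 129, lymphoid progenitor-like cells at 1205 ± 164 (6 mice) and GMPs at 1150 ± 128 CPM, and these 5 overlapped. The groups are mixed in these means, and mice with few cells of a class are missing from them. Of the cytosolic members 18 had their highest mean in erythroid/MEP-like cells and 20 their lowest in neutrophil-like cells. Hars was at 117 ± 13.9 CPM in erythroid/MEP-like cells, where its lowest mouse at 102 CPM was above every mouse of the other classes compared, the next being a lymphoid value of 99.5 CPM.

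Nars was the member with its highest mean in GMP-like cells below the limit, and its lowest was in neutrophil-like cells. It was at 217 ± 20.6 CPM in GMP-like cells below the limit and 215 ± 26.8 CPM in GMPs, which did not differ beyond the spread, and at 150 ± 11.9 CPM in erythroid/MEP-like, 131 ± 20.9 in monocyte/MDP-like, 119 ± 17.2 in HSC/MPP-like, 96.5 ± 27.3 in lymphoid progenitor-like and 63.4 ± 9.45 CPM in neutrophil-like cells. Its lowest GMP mouse at 168 CPM was above the highest erythroid/MEP-like mouse at 166 CPM. Wars had its highest mean in HSC/MPP-like cells at 34.6 ± 7.79 CPM, which overlapped the 30.4 ± 5.94 CPM of erythroid/MEP-like cells.

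The mitochondrial members had another order. They summed to 427 ± 25.4 CPM in erythroid/MEP-like, 407 ± 68.7 in lymphoid progenitor-like and 386 ± 24.0 in HSC/MPP-like cells, which overlapped, and then to 321 ± 24.8 in monocyte/MDP-like cells, 275 ± 14.2 in GMP-like cells below the limit, 226 ± 14.4 in GMPs and 171 ± 32.0 CPM in neutrophil-like cells. Monocyte/MDP-like cells met the lymphoid progenitor-like and HSC/MPP-like ranges and lay above those of the GMP-like cells. GMPs lay below GMP-like cells without overlap. They overlapped neutrophil-like cells, where 87.7 of the 171 CPM were of Lars2 alone. Of the 16 members 15 had their lowest mean in neutrophil-like cells. The exception was Lars2, at 44.8 ± 12.6 CPM in GMPs, 87.7 ± 36.5 CPM in neutrophil-like cells and 128 ± 42.0 CPM in lymphoid progenitor-like cells, its highest mean. It was at 104 ± 14.2 CPM in HSC/MPP-like and 67.8 ± 12.7 CPM in erythroid/MEP-like cells. Lars2 is part of the sums above, and the order and overlap of the sums without it were not tested.

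**Figure D5:**
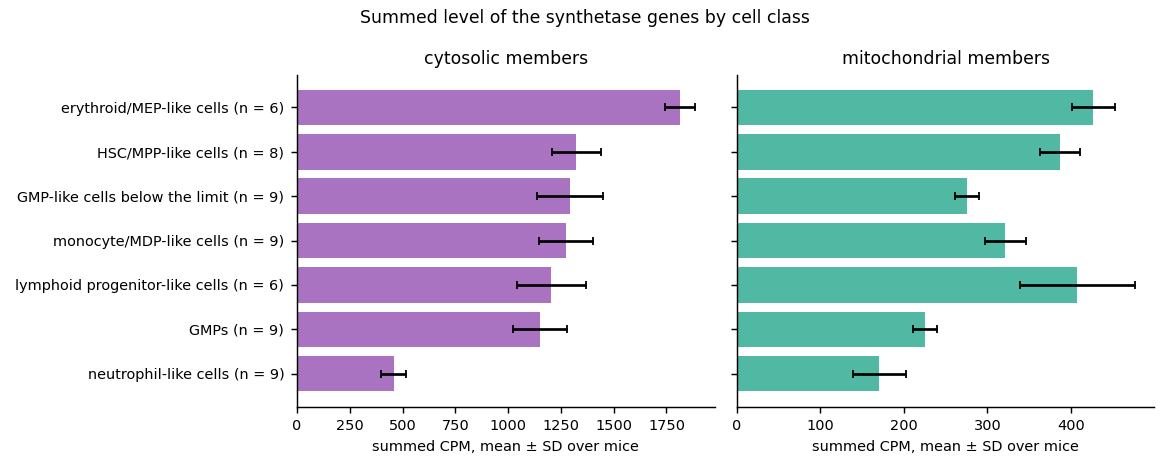
Summed CPM (horizontal axes, mean with SD over mice) of the 20 cytosolic and the 16 mitochondrial members in 7 cell classes, with the number of mice beside each class. Erythroid/MEP-like cells have the longest bar in each panel, 1815 and 427 CPM, and neutrophil-like cells the shortest, 457 and 171 CPM.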

How the data were processed

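Single-cell 3′ libraries of c-Kit-enriched BM were made in 3 pools, each with 1 hashtagged mouse per group. The authors deposited raw UMI counts per gene and hashtag counts, made with Cell Ranger 6.0.0 on mm10 and followed by Seurat, per the submitters' processing notes. The pools held 11441 to 14297 barcodes, 38 to 48 of them shared between any 2 pools.

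Barcodes with 500 to 7500 detected genes (the study's transcript limit read as genes) and under 15% mitochondrial counts were kept, 32762 in all. HTODemux (Seurat 5.3.0, quantile 0.99) left 15966 singlets after 31.5% to 52.1% of a pool's barcodes were negative. Doublets were taken from the hashtags, and Scrublet entered 1 alternative. Leiden clustering (scanpy 1.11.5, resolution 0.8) gave 19 clusters, 3 of them unnamed, from 1990 variable genes, after 10 genes of the lists were left out. GMPs were singlets with ln(1 + Ms4a3 UMIs per 10000 UMIs) above 3. Classes with at least 20 cells in every mouse were tested.

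Counts were summed per mouse and tested with edgeR 4.0.16 (quasi-likelihood, TMM, Benjamini-Hochberg over all genes, all 9 mice in 1 fit). Differences of effects between GMPs and other classes were tested with limma 3.58.1 on the per-mouse difference of log2 CPM. CPM values are TMM-scaled, and levels across classes were scaled within each class. DESeq2 1.42.0, other scalings, filters, cell definitions and left-out mice were alternatives. Scripts were tested on simulated data. P-values measure the spread between mice, and limits from a count of 0 cover counting error only. The labels put same-pool mice in 1 lane, and their deviations from the group means correlated at a median of 0.09 (9 pairs, -0.02 to 0.21), against -0.05 for 18 pairs of different pool and group, so fits with the pool as a block were also made.

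The members and lists were chosen with earlier results of these data known. Values per mouse are given for members called in at least 1 GMP comparison, and at most 4 genes per other list and comparison are named by smallest adjusted p.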

Additional observations from a re-analysis of the deposited data

How the results depend on the processing

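In vehicle over NTB the 10 cytosolic calls in GMPs became 5 with DESeq2, 5 with library totals, 17 with all cells of the GMP-like clusters, 1 with GMPs of 1 cluster, 0 with equal cells per cluster or UMI bin, 0 with a limit on UMIs per cell and 2 with thinned sums, and 3 to 11 when 1 mouse was left out. The median of 0.45 became 0.36, 0.36 and 0.36 with 1 cluster, equal UMI bins and equal clusters, 0.35 with thinned sums and -0.14 with the UMI limit, and 0.42 to 0.47 without 1 mouse. The mitochondrial call became 2 with the GMP-like clusters, 0 with the UMI limit and 0 to 1 without 1 mouse. In BRQ over vehicle the 4 cytosolic calls became 2 with DESeq2, 0 with equal UMI bins, equal clusters, library totals, the UMI limit or thinned sums, and 2 to 7 without 1 mouse. The median of -0.18 became 0.0179 with library totals and 0.26 with the UMI limit, and -0.22 to -0.15 without 1 mouse, and library totals called 3 mitochondrial members. In BRQ over NTB the 1 cytosolic call became 0 with DESeq2, 1 cluster, equal UMI bins, equal clusters, the UMI limit or thinned sums, 7 with the GMP-like clusters, 9 with library totals, 5 with a lower Ms4a3 limit, 2 with tag ratios and 0 to 1 without 1 mouse. The mitochondrial call became 3 with the GMP-like clusters, 2 with the lower Ms4a3 limit, 0 with 1 cluster, equal UMI bins, equal clusters or the UMI limit, and 0 to 1 without 1 mouse. The median of 0.17 became 0.25 with the GMP-like clusters, 0.0864 and 0.0875 with 1 cluster and equal clusters, 0.34 with library totals and 0.0581 with the UMI limit, and 0.13 to 0.22 without 1 mouse. Eprs reversed to -0.39 with the UMI limit and Lars to 0.0194 with equal UMI bins. Restricting to 1 cluster and thinning were chosen after seeing the data. Fewer cells or UMIs enter the restricted and thinned sums, and otherwise the cause was not tested.

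With the pool as a replicate block, BRQ over vehicle gave 7 cytosolic calls in GMPs, 4 in all singlets and 4 in GMP-like cells below the limit, BRQ over NTB gave 4 cytosolic and 2 mitochondrial calls in GMPs, and no other count moved by over 1.5 times. In other classes, leaving out 1 mouse gave 10 to 17 calls in GMP-like cells below the limit, 0 to 2 in monocyte/MDP-like and 0 to 4 in neutrophil-like cells for vehicle over NTB, where tag ratios called 1 in monocyte/MDP-like cells, and 0 to 8 for the difference between GMPs and neutrophil-like cells. For BRQ over vehicle it gave 0 to 2 in all singlets, 0 to 3 below the limit and 0 to 4 in monocyte/MDP-like cells, while DESeq2 gave 3 and 1 in the first 2 (10 members had no adjusted p in the second) and tag ratios 3 in all singlets. For BRQ over NTB it gave 5 to 15 in all singlets, 2 to 11 below the limit and 0 to 1 in monocyte/MDP-like cells, while tag ratios gave 20, 17 and 0, and DESeq2 3 below the limit and 0 in monocyte/MDP-like cells.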

Other observations

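Genes that mature and export tRNA were measured beside the synthetases. In GMPs 19 of 20 were tested and 0 passed in vehicle over NTB in edgeR, with 8 at an unadjusted p under 0.05 and a median log2 fold change of 0.29, and 2 were lower in BRQ over vehicle, Pop1 by -0.57 ± 0.15 (adjusted p = 0.0148) and Pop7 by -0.34 ± 0.10 (adjusted p = 0.0198), which encode subunits of RNase P, where 7.37% of all genes were called lower, not far from their share. In GMP-like cells below the limit 4 of the 19 were higher in vehicle over NTB, at a median of 0.37. There 21.2% of all genes were called in either direction, a share that counts lower genes as well. Among 9 mitochondrial translation factors, Tufm, the mitochondrial elongation factor Tu, was higher in Veh-GMPs by 0.56 ± 0.15 (adjusted p = 0.0197) and in BRQ-GMPs by 0.64 ± 0.15 (adjusted p = 0.0111) over NTB-GMPs, and Tsfm, its exchange factor, in Veh-GMPs by 0.52 ± 0.14 (adjusted p = 0.017), all in edgeR. The shares of all genes called higher were 6.63% in vehicle over NTB and 2.56% in BRQ over NTB. In neutrophil-like cells, where no synthetase was called, 6 of 16 tested genes of the ATF4 response were higher in vehicle over NTB and none lower, with a median of 0.37, where 10.4% of all genes were called. A cluster led by Wfdc17, Il1b and Steap4 held 4.90% to 7.97% of these cells in NTB mice and 57.0% to 87.2% in vehicle mice, and its part in this count was not tested.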
